A study of Homo sapiens with 4 samples.

Results

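The 35 microRNAs (miRNAs) described here were listed as markers of tissues other than the prostate epithelium: 7 of blood cells, 5 of muscle, 8 of neural tissue, 1 of liver, 8 of embryonic stem cells and 6 of mesenchyme and vessels. They were taken by name from the matched human probes of a custom oligonucleotide array, on which 455 human miRNA probes were found by probe name. The labels give 474 human miRNAs for the array, and shares over all human miRNAs here use the 455. The RNA came from LAPC-4, an androgen-responsive line established from a human prostate cancer. For 24 hours the cells were starved of androgen in 10% charcoal-stripped serum, from which steroids have been removed, before the synthetic androgen R1881 was added at 0, 0.1, 1 or 10 nM. There was 1 sample and 1 single-colour array for each dose, 4 in all, with no replicates, and the labels do not say whether the cells came from separate cultures. The length of the R1881 exposure is not clear from the labels.

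A miRNA is a short RNA that guides repression of messenger RNAs, mainly by pairing through its seed, the stretch from base 2 to base 8. Many miRNAs are made in most cells, but some are largely confined to 1 lineage and are used as its markers, such as miR-1, miR-133 and miR-206 in muscle, miR-122 in liver, miR-124 and miR-9 in brain, miR-142 and miR-223 in blood cells, and the miR-302 and miR-371 clusters in embryonic stem cells. miR-199a and miR-214 are typical of fibroblasts and other mesenchymal cells. In a culture of 1 epithelial line, a signal from such probes can be read against the probes for which no target is expected.

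Mature sequences of 30 of the 35 were found in the RefSeq miRNA table for GRCh38.p14 by the current name of the arm, and miR-10b, miR-124a, miR-150, miR-199b and miR-451 were not matched. The sequences of the 5 members that passed the detection limit come first, since the results turn on them, with the seed in capitals, 5′ to 3′.
miR-214: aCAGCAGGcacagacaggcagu
miR-128a and miR-128b: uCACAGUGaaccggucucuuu
miR-206: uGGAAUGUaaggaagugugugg
miR-155: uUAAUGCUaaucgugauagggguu

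miR-214 lies at chr1:172138816-172138837 on the minus strand, inside the spans of DNM3 and DNM3OS. miR-128a and miR-128b are the products of MIR128-1, at chr2:135665446-135665466 inside R3HDM1, and of MIR128-2, at chr3:35744527-35744547 inside ARPP21, both on the plus strand. RefSeq gives 1 mature sequence for both. The array's probe sequences were not used here, so whether these probes differ is not known. miR-206 lies at chr6:52144401-52144422 on the plus strand, outside the span of any protein-coding or long non-coding gene in the table. miR-155 lies at chr21:25573983-25574006 on the plus strand, inside MIR155HG. The table does not say which of these positions are exonic or intronic.

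Sets of members with a shared seed are shown next, and some of these members differ so little that a probe for 1 could bind another. miR-1 has the seed of miR-206, and the 22-base sequences differ at 4 positions, which are G11A, G17A, G21A and G22U from miR-206 to miR-1, counted from the 5′ end. miR-133a and miR-133b differ by G22A alone. The 4 miR-302 members share the seed AAGUGCU with miR-372 and miR-373, and differ from each other by 2 or 3 bases.
miR-1: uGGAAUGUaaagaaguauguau
miR-133a: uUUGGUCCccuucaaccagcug
miR-133b: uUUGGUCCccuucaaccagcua
miR-302a: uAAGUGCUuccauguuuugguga
miR-302b: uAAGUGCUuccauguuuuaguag
miR-302c: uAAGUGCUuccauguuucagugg
miR-302d: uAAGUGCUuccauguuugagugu
miR-372: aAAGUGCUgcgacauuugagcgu
miR-373: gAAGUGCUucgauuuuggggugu

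Values are mean spot intensities on a linear scale with no background removed, and their precision is limited by there being 4 arrays. Each of the 35 members has a second probe with 2 mismatched bases, as many other miRNAs on the array do, and the 576 mismatch probes above 0 on every array served as negative controls. A miRNA was called detected on an array where its matched probe was brighter than 95% of those mismatch probes, a limit of 118, 135.5, 138 and 143.5 at 0, 0.1, 1 and 10 nM. As a check of the labelled cell type, 7 of 11 epithelial miRNAs were detected on at least 1 array, against 29.9% of all 455 human miRNAs. Among them were miR-200c at 683, 722, 735.25 and 866 and miR-141 at 369.75, 354, 341.75 and 374 from 0 to 10 nM. Also detected were miR-200b and miR-183, miR-96 and miR-182, which form 1 cluster and are not separate evidence of the cell type. miR-375 passed the limit on 1 array only. Not detected were miR-200a (82.5 to 97.5), miR-429 (69 to 83.5), miR-203 (93.25 to 105.5) and the basal marker miR-205 (77 to 82).

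Of the 35 members, 5 were detected on at least 1 array, against 29.9% of all 455 human miRNAs. The 5 were miR-214, miR-128a, miR-128b, miR-206 and miR-155, and the first 4 were detected on all 4 arrays, as were 23.3% of all human miRNAs. By array, 5, 4, 4 and 4 members were detected at 0, 0.1, 1 and 10 nM, against 28.4%, 26.2%, 25.1% and 25.7% of human miRNAs. The other 30 stayed under the limit on every array, with single readings between 70.5 and 116.25. The median of these 30 was 89, 84, 88.5 and 80.9 at 0, 0.1, 1 and 10 nM, against 84.5, 82, 87.5 and 76 for the mismatch probes and 93.75, 90.5, 94.25 and 87 for 107 virus and worm miRNA probes. On each array the 30 therefore had a median between those of both kinds of control. A reading under the limit was not detectable by this array, which does not show that the miRNA was absent. In bulk RNA, fewer cells carrying a miRNA and less of it per cell cannot be told apart.

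**Figure D1:**
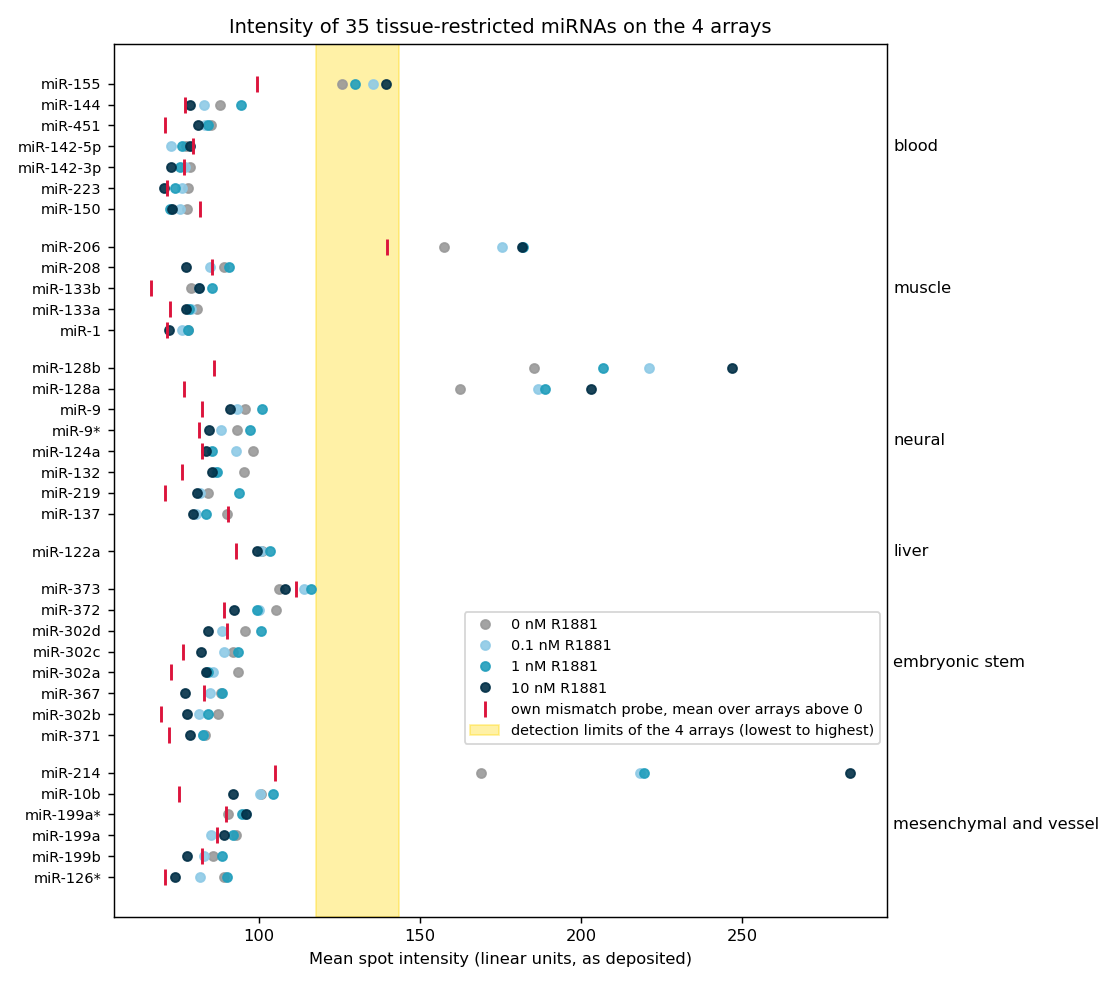
Mean spot intensity (linear units, horizontal axis) of each of the 35 miRNAs, grouped by tissue, with 1 point per array coloured by R1881 dose. Red bars give the mean of the miRNA's own mismatch probe and the band spans the 4 detection limits (118 to 143.5); 4 miRNAs lie beyond the band on every array, and miR-155 lies inside it.

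Among the blood miRNAs 1 of 7 was detected. miR-155, which is induced in activated lymphocytes and raised in several tumours, read 125.75, 135.5, 129.75 and 139.5 at 0, 0.1, 1 and 10 nM. It passed the limit on the untreated array alone, where both the limit and its own intensity were lowest, and at 0.1 nM it equalled the limit. Its mismatch probe read 102.5, 93.5, 95 and 106.5. miR-144, an erythroid miRNA, had the highest mean of the undetected blood members and read 87.75, 82.75, 94.5 and 78.5. The 6 undetected blood miRNAs, which include both arms of the pan-leukocyte miR-142, the lymphoid miR-150 and the erythroid miR-451, lay between 70.5 and 94.5. The myeloid miR-223 was among the lowest, at 78, 76, 74 and 70.5.

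Among the muscle miRNAs miR-206, a skeletal muscle miRNA, was detected at 157.5, 175.5, 182 and 181.5. Its mismatch probe was bright too, at 117.5, 142, 150 and 149, and itself exceeded the limit on 3 of 4 arrays. No other member had a mismatch probe above the limit on any array. miR-1, which shares the seed printed above, read 78, 76, 78 and 72, and the heart miRNA miR-208, encoded within MYH6, read 89, 84.75, 90.5 and 77.25. Over the 4 undetected muscle miRNAs, miR-133a and miR-133b included, readings ran from 72 to 90.5.

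Among the neural miRNAs 2 of 8 were detected, the pair with 1 mature sequence. miR-128a, which is enriched in brain, read 162.5, 186.5, 188.75 and 203, and its mismatch probe 79, 76, 77 and 74.5. miR-128b read 185.25, 221, 206.75 and 246.75, and its mismatch probe 81.5, 88, 84 and 91. Both matched probes were lowest on the untreated array and highest at 10 nM. That difference was 1.25-fold for miR-128a and 1.33-fold for miR-128b, against a median of 1.25-fold over the 136 detected human miRNAs. The 6 undetected members (miR-124a, miR-9, miR-9*, miR-137, miR-219 and miR-132) ran from 79.5 to 101, with miR-9, a regulator of neural progenitors, at 95.75, 93, 101 and 91. The neuronal miR-124a read 98, 92.75, 85.5 and 83.5.

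The liver miRNA miR-122a, which is the most abundant miRNA of hepatocytes, read 100.75, 100.5, 103.5 and 99.5 and was not detected. None of the 8 embryonic stem cell miRNAs was detected, with readings from 77 to 116.25. miR-373 came nearest to its limit of all undetected members, with a difference of −11.4 from it on the untreated array. It read 106.25, 114, 116.25 and 108, whereas its mismatch probe read 102.5, 134.5, 103 and 105.5. The related miR-372 read 105.25, 100, 99.25 and 92.25, and the 4 miR-302 members, which mark pluripotent cells, ran from 77.5 to 100.5. On the other side of the limit, miR-155 lay 8.12 units above it on the untreated array.

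Of the mesenchymal and vessel miRNAs miR-214 was detected, at 169, 218.25, 219.5 and 283.5. Its mismatch probe read 99, 102.5, 108 and 110. The 5 others, miR-199a, miR-199a*, miR-199b, miR-10b and miR-126*, ran from 74 to 104.25, and miR-10b, encoded in the HOXD cluster, had the highest mean of these at 100.5, 100.25, 104.25 and 92.

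Setting each matched probe against its own mismatch probe divided the 5 detected members. The ratio of the mean intensities was 2.50 for miR-128b, 2.42 for miR-128a and 2.12 for miR-214, but 1.33 for miR-155 and 1.25 for miR-206. A ratio of 2 or more, a bound chosen after the values were seen, was found in 59.6% of the 136 detected human miRNAs. Of all 35 members, 21 were brighter than their mismatch probe on every array where that probe read above 0, against 62.9% of human miRNAs. Over the 30 undetected members the median ratio was 1.09, and 16 were brighter by this measure, against 50.5% of all 319 undetected human miRNAs. miR-150 was dimmer than its mismatch probe on all 4 arrays.

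**Figure D2:**
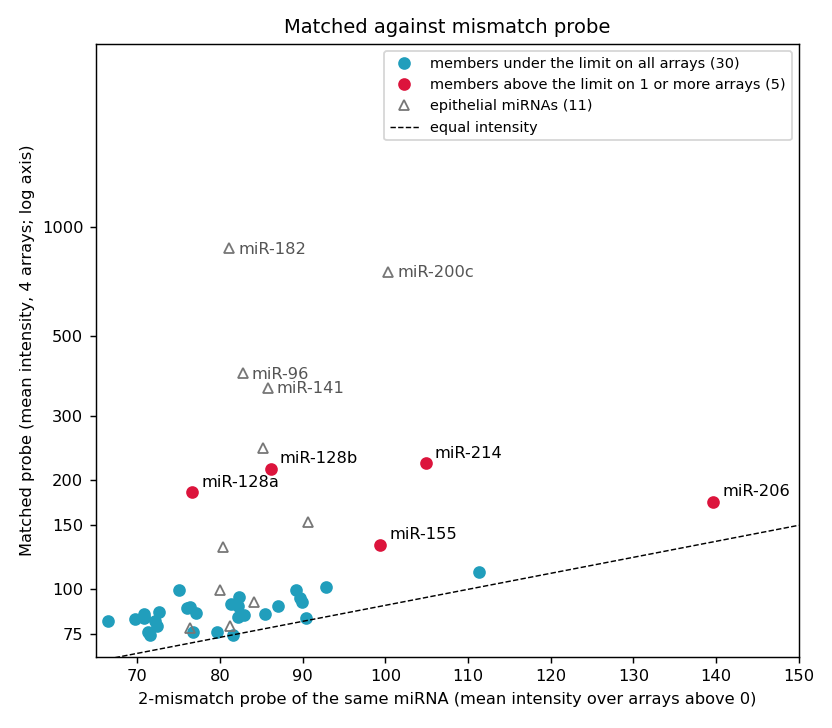
Mean intensity of the matched probe (vertical, log axis) against that of the mismatch probe of the same miRNA (horizontal, linear axis) for the 35 members and 11 epithelial miRNAs. miR-128a, miR-128b and miR-214 stand clear of the line of equal intensity, at ratios of 2.42, 2.50 and 2.12, whereas miR-206 and miR-155 have ratios of 1.25 and 1.33.

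The authors' deposited processed table gave a second reading of detection. Each of its values equals the array's intensity minus the median of all 604 mismatch probes (84.5, 82, 87 and 76 from 0 to 10 nM), and a probe is left blank where its intensity is less than double that median. By that rule 4 members were filled on at least 1 array, against 24.6% of human miRNAs. miR-214 and miR-128b were filled on all 4 arrays, miR-128a and miR-206 on the 3 treated ones, and miR-155 on none. The untreated reading of miR-214, 169, lay exactly at 2 times the median there. Of the 604 mismatch probes, 4, 19, 9 and 25 reached the same bound at 0, 0.1, 1 and 10 nM.

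For 2 of the 5 detected members, miR-214 and miR-206, probes of miRNAs from the same genomic cluster could be compared. MIR214 and MIR199A2 lie 5627 bases apart in the span of DNM3OS, a non-coding transcript that is their known precursor. The probe for miR-214 was detected on 4 arrays, and those for miR-199a (92.75, 85, 91.75 and 89.25) and miR-199a* (90.25, 96, 94.75 and 96) on none. MIR206 and MIR133B are separated by 4488 bases, and miR-133b read 79, 81.25, 85.25 and 81.25, under the limit throughout. The miR-302 and miR-367 cluster and the miR-371 to miR-373 cluster had no detected member.

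The related miRNAs outside the 35 looked at, miR-126, miR-10a and miR-212, were picked by name and not by a full search. Of these, miR-126 and miR-10a were detected. Over all human miRNAs, 23.3% were detected on all 4 arrays. miR-126, the other arm of the endothelial hairpin, encoded in EGFL7, that gives miR-126*, was detected on all 4 arrays at 278.5, 291.25, 278.25 and 305.25, while miR-126* read 89, 81.75, 90 and 74. miR-10a, the paralog of miR-10b, was likewise detected on all 4 arrays, at 256.5, 265.75, 262.5 and 271. miR-212, the neighbour of miR-132, was under the limit at 100.25, 105.5, 109.25 and 117, as was miR-132 at 95.25, 86.25, 87 and 85.5. Different probes differ in brightness for the same amount of RNA, so these values show detection and do not rank the miRNAs.

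**Figure D3:**
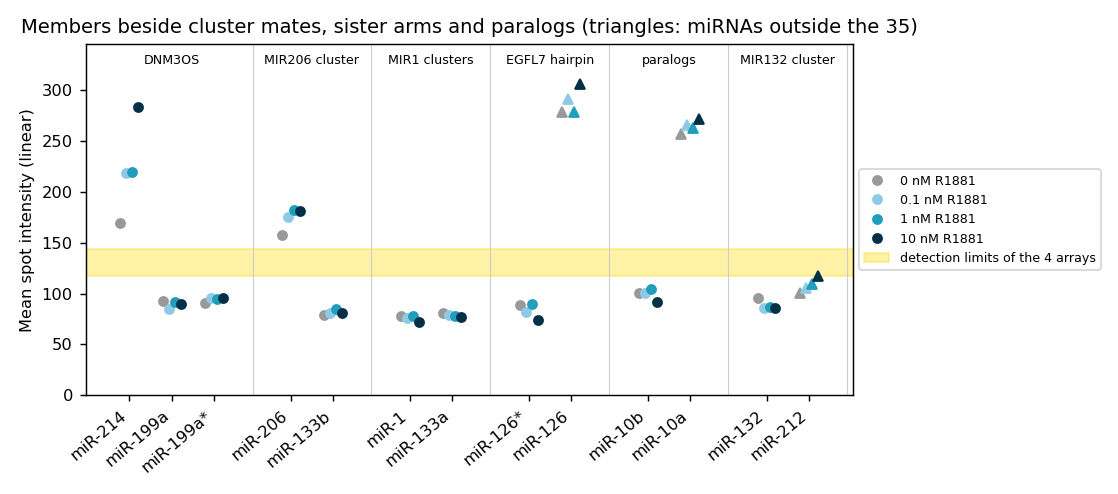
Mean spot intensity (linear units) on the 4 arrays for members beside cluster mates, sister arms and paralogs, with circles for members, triangles for other miRNAs and a band for the detection limits. miR-214, miR-206, miR-126 and miR-10a lie above the band, and their partners in the same panels lie below it.

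The matched members shared little in sequence beyond these families. They had 20 to 24 bases. G and C made up a median of 47.6% of the 5 detected sequences, with a range from 37.5% in miR-155 to 59.1% in miR-214, and a median of 39.1% of the 25 undetected ones, with a range from 27.3% to 54.5%. miR-214 was the one detected member at 50% or more, as were 4 of the undetected ones. These shares are given as a description, and the part of base composition in the intensities was not tested.

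The second question was whether R1881 altered the detected members. Ratios of treated to untreated arrays were taken on the log2 scale after background correction and quantile normalization, which gives every array the same distribution. miR-214 had ratios of 0.19, 0.22 and 0.35 at 0.1, 1 and 10 nM, a 1.28-fold higher value at the top dose. miR-128b had 0.12, 0.01 and 0.07, and miR-128a 0.05, 0.04 and 0.04. miR-206 had 0.01, 0.04 and −0.09. By the mean of the 3 ratios, miR-214 ranked 19 among the 136 detected human miRNAs, counted from the highest. None of the 5 detected members was 1.5-fold higher or lower at 10 nM, against 2.21% of 136 human miRNAs in each direction. miR-214, miR-128a and miR-128b were above untreated at all 3 doses, against 26.5% of the 136, and miR-155 was below at all 3, against 42.6%. The mean ratios of miR-128a and miR-128b, 0.04 and 0.07, lay within the range over the 30 undetected members, −0.21 to 0.16. That of miR-214, 0.25, lay above it. Those 30 never read above 116.25, so their range does not measure the spread of brighter probes such as miR-214. miR-155 was not above the limit on any treated array, so its ratios on this scale measure no change, and its unscaled intensity was higher at each dose.

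A straight line over dose rank was fitted in limma for each of the 136 detected miRNAs. With 1 array per dose, its p-values rest on how far 4 arrays depart from a line, for the miRNA itself and pooled over all miRNAs fitted. That spread may be technical. After Benjamini-Hochberg adjustment 0 of 136 passed 0.05 in limma, among them 0 of the 5 members, whereas 36 of 136 (26.5%) had an unadjusted p under 0.05, miR-214 alone among the members. The slope of miR-214 was 0.11 ± 0.03 log2 units per dose step (SE, limma, adjusted p = 0.139), and the slopes of the other 4 ran from −0.03 to 0.01 (limma, adjusted p = 0.506 to 0.850). The lowest of these, for miR-155, rests on readings at or under the limit on the 3 treated arrays. With all 455 human miRNAs fitted, 3.96% passed in limma, and 0 of the 35 members did. The largest slope among the 30 undetected members in that fit was −0.08 for miR-372 (limma, adjusted p = 0.254).

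The result for miR-214 depended on the scaling of arrays. With no scaling its ratios were 0.44, 0.42 and 0.87, with a slope of 0.26 ± 0.06 (SE, limma, adjusted p = 0.00591), and 38.2% of the 136 rose and 0.735% fell in the trend test. After median scaling the slope was 0.25 ± 0.06 (limma, adjusted p = 0.0118), and 35.3% rose and 0.735% fell. With cyclic loess the slope was 0.14 ± 0.04 (limma, adjusted p = 0.0416), and 7.35% rose and 9.56% fell. Centring on the detected miRNAs gave 0.16 ± 0.05 (limma, adjusted p = 0.0582), where 5.15% rose and 4.41% fell. The median of the mean ratios over the 136 moved with the scaling, to 0.21 with none and 0.18 after median scaling, against −0.04 after quantile normalization. Relative to that median, miR-214 stood 0.37 higher with no scaling and 0.30 higher after quantile normalization. No other member passed the trend test under any of these scalings.

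The split of directions moved with the scaling as well. All 5 detected members lay above untreated at all 3 doses with no scaling, against 65.4% of the 136 above and 6.62% below, and after median scaling, against 61% above and 8.82% below. With cyclic loess 3 members were above and 1 below, against 33.8% and 44.9% of the 136. With detected-miRNA centring 3 were above and 0 below, against 47.8% and 23.5%. miR-214 was the 1 member 1.5-fold higher at 10 nM with no scaling, against 30.9% of the 136, and after median scaling, against 29.4%. No detected member reached that bound with cyclic loess, against 2.21% in each direction, or with centring, against 3.68% higher and 2.21% lower.

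**Figure D4:**
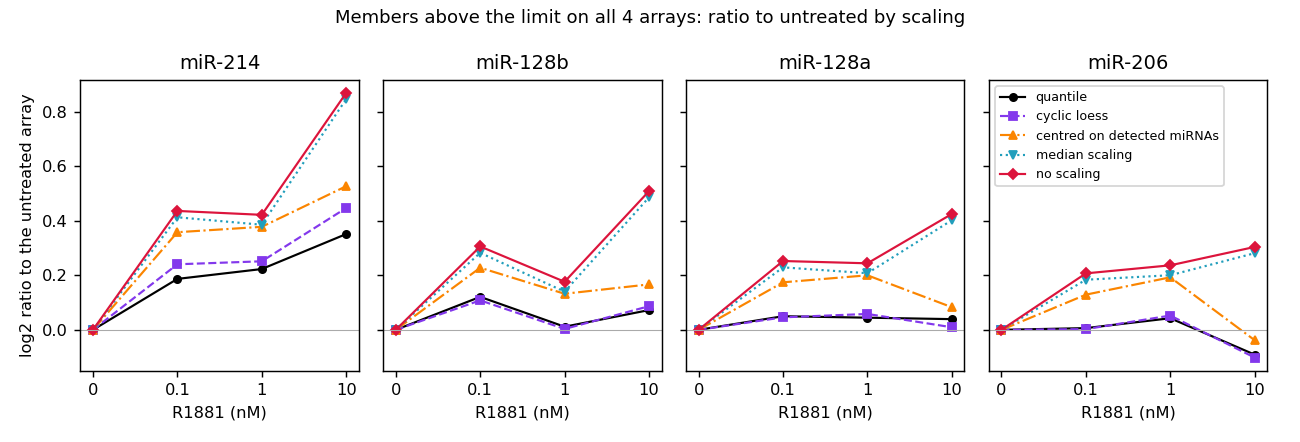
Log2 ratio to the untreated array (vertical) by R1881 dose (horizontal, 0 to 10 nM in equal steps) for the 4 members detected on all arrays, with 1 line per scaling. miR-214 is above 0 at every dose under all 5 scalings, from 0.35 to 0.87 at 10 nM, whereas miR-206 crosses 0 at 10 nM with the scaling.

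In unscaled intensity miR-214 was 1.68-fold higher at 10 nM than without R1881, and by the values of the authors' deposited table it was 2.46-fold higher, where the subtraction enlarges ratios of dim probes. The median over the 136 was 1.25-fold in intensity, and 13 of them, miR-214 included, were at least as high as miR-214. Of the 7 spike probes on the array, only Bio B and Bio C, both named as negative, are given here. They were picked because they rose with dose in intensity, so they do not stand for the controls in general. The Bio B spike read 362.25, 473.25, 525.5 and 604.75, a 1.67-fold difference at 10 nM. Its log2 ratios were 0.32, 0.38 and 0.35 after quantile normalization. The Bio C spike was 1.47-fold higher in intensity, with 0.08, 0.04 and 0.15 after normalization. What moved these spikes, and its part in the miR-214 ratio, was not tested.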

How the data were processed

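Per the labels' protocols, each sample's 10 µg of Cy3-labelled total RNA went on a custom CombiMatrix array. The authors deposited linear mean spot intensity for each probe name, per the file headers. The scanner and the spot filters used are not given in the sources read. The authors' processed intensity table was checked against these values and equals them minus 1 constant per array. The medians of its filled cells are 260.5, 226.25, 269 and 213.5 from 0 to 10 nM. Only 107, 132, 120 and 162 of its 802 rows are filled, so these medians leave out the dimmer probes.

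The titles gave each sample's dose. From the deposited intensities, 28 mismatch probes listed at 0 on some array were left out, and 1378 probes were background-corrected (normexp, offset 50), quantile-normalized and log2-transformed with limma 3.58.1 in R 4.3.3. The limma trend on dose rank leaves 2 residual degrees of freedom per miRNA, and its eBayes step adds a variance pooled over the fitted miRNAs. Other limits, scalings, filters, codings of dose and omitted arrays were tried, and the reading of the authors' table was added after the data were seen. miRNA names are those of the array, and its probe sequences were not used here.

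The members, lists and alternatives were chosen with earlier results of these data known. All 35 members are accounted for. Values on every array are printed for detected members and for the brightest undetected member of each tissue.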

Additional observations from a re-analysis of the deposited data

Results flagged for a closer look

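The array also carries 11 rodent-named probes with the name of a member, which no comparison above used. Of these, 10 were under the limit on all 4 arrays, between 74.5 and 100.75, and none of their human namesakes was detected either. The mouse-named miR-155 probe passed the limit on 2 of 4 arrays. It read 130.25, 131.5, 133.75 and 144.25 at 0, 0.1, 1 and 10 nM, and its highest reading, 144.25 at 10 nM, stands here because it lies in data outside the main measurement and above the mismatch limit of 143.5. Its own mismatch probe read 112.5, 119, 126 and 139.5. With 1 array per dose, no group was large enough to look for outlying samples.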

How the results depend on the processing

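The count of detected members stayed between 4 and 7 under every limit tried. It was 4, each time without miR-155, at the 99th percentile (90 of 455 human miRNAs), with virus and worm probes as negatives (119 of 455), on all 4 arrays (106 of 455) and in the authors' table (112 of 455). It was 7 at the 90th percentile (196 of 455), which added miR-372 and miR-373. Omitting 1 array gave 4 to 5, with 4 where the untreated array was left out. The count of members 1.5-fold from untreated at 10 nM, 0 in the main setting, was 1 after median scaling and 1 with no scaling, miR-214 in both. The count above untreated at all 3 doses, 3, was 5 with median or no scaling and 6 of 35 with no detection filter (110 of 455 human miRNAs). The count below at all 3 doses, 1, became 0 after median scaling, no scaling, detected-miRNA centring or detection on all 4 arrays (38 of 106 human miRNAs), and 10 of 35 with no detection filter (170 of 455). Trend calls among members, 0 in limma, became 1 (miR-214) with median scaling, no scaling and cyclic loess, and stayed 0 to 0 when 1 array was omitted.

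The mean log2 ratio changed sign for miR-155, at −0.08 in the main setting and 0.14, 0.16 and 0.0092 with median scaling, no scaling and detected-miRNA centring. But miR-155 was not above the limit on any treated array, so these values measure no change. The mean ratio of miR-206 changed sign too, at −0.01 against 0.22, 0.25 and 0.095. The cause was not tested. No paired analysis was possible because each dose has 1 sample and the labels give no replicate numbers. Signal near background limits all calls on the 30 undetected members.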
